A study of Mus musculus with 24 samples.

Results

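Dorsal hippocampus of untrained WT mice was sequenced in both experiments of the study, once from total RNA depleted of ribosomal RNA (RNA-Seq 1) and once from polyA-selected RNA (RNA-Seq 2). The members were the 6 libraries labelled WT and homecage, 3 of each library type, out of 24 libraries in the series. All 6 came from male C57BL/6j mice of 2 to 4 months, with no allele or agent other than WT, and no member carried the CBP KIX mutation that the study is about. The total RNA libraries were made with a stranded Ribo-Zero Gold kit at one sequencing core, and the polyA libraries with a TruSeq kit at another. Sequencer model, read length and run differed along with the library type, and handling before tissue collection is described for the homecage mice of the fear conditioning experiment only, so the effect of the library type and the effects of these factors cannot be told apart. Each experiment held other mice, and nothing in the labels says how many mice entered a library, so p-values measure the spread between these libraries. The comparison asks which classes of genes depend on how the RNA was selected.

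Selection with oligo-dT keeps RNAs that end in a polyA tail, which most mRNAs and many long noncoding RNAs carry. Replication-dependent histone mRNAs end instead in a conserved stem-loop that is bound by the stem-loop binding protein, and the transcripts of RNA polymerase III, the small nuclear RNAs and the small Cajal body RNAs also lack a tail. Unspliced precursors still hold their introns, and those of long neuronal genes hold very long ones. Ribosomal depletion removes rRNA by hybridization and leaves all of these in the library.

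The total count was 43816201, 46356794 and 62431769 in total RNA replicates 1 to 3, and 37461721, 43679701 and 15385836 in polyA replicates 1 to 3. Correlations of log2 CPM (counts scaled to library size by upper-quartile normalization) were 0.987 at the lowest between libraries of one type and 0.901 at the highest between types. In raw counts total RNA replicate 3 stood somewhat apart from its group. Its chi-square per gene was 85.3 against replicate 2 and 96.0 against replicate 1, which differed from each other by 16.3. The chi-square was taken on raw totals, without the normalization factors (0.802, 0.813 and 0.951 for total RNA replicates 1 to 3). It therefore includes differences in library composition. Choroid plexus markers summed to 1659 CPM in total RNA replicate 3 and 1563 CPM in polyA replicate 2, against 24.9 to 142 CPM in the other 4 libraries, and of these 5 markers none passed the edgeR test, nor an unadjusted p under 0.05. Among the other cell types, markers of neurons, astrocytes, oligodendrocytes and microglia were above 0 in every library.

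Of 20602 genes tested with edgeR's quasi-likelihood test, 14209 (69%) differed at an adjusted p (Benjamini-Hochberg) under 0.05. The level in total RNA was higher for 7669 genes (37.2%) and lower for 6540 (31.7%), and by at least 2-fold for 4686 (22.7%) and 2536 (12.3%). Under scaling by total count alone the split was 5121 higher and 9673 lower, and the median difference of all genes moved from 0.03 to -0.42 on the log2 scale. Log2 differences below are total RNA minus polyA after upper-quartile normalization, and are to be read relative to that median of 0.03. Protein-coding genes took 83.1%, 84.4% and 86.7% of the counts in the 3 total RNA libraries and 97.6%, 97.6% and 97.7% in the 3 polyA libraries. The difference was made up mainly by misc_RNA genes, the annotation class of 7SK and 7SL RNA, with 7.92% ± 1.24 (SD, n = 3) of total RNA counts and 0.00147% ± 0.000362 of polyA counts. The 22 genes of the ribozyme class, Rpph1 among them, followed with 2.42% ± 0.594 against 0.000180% ± 0.000120, and lincRNA genes with 2.25% ± 0.209 against 0.645% ± 0.0198. The lincRNA difference lay in Gm26917 and Malat1, since without both the share was lower in total RNA, 0.389% ± 0.0297 against 0.610% ± 0.0158. Of 835 tested lincRNA genes 213 were higher and 275 lower, with a median log2 difference of -0.32. Mitochondrially encoded mRNA genes moved the other way, from 0.806% ± 0.108 of total RNA counts to 4.25% ± 0.141 of polyA counts. With 3 libraries against 3 the exact two-sided permutation test cannot give a p below 0.10, and it gave 0.10 for each of these shares (adjusted p 0.11 over 23 classes).

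**Figure D1:**
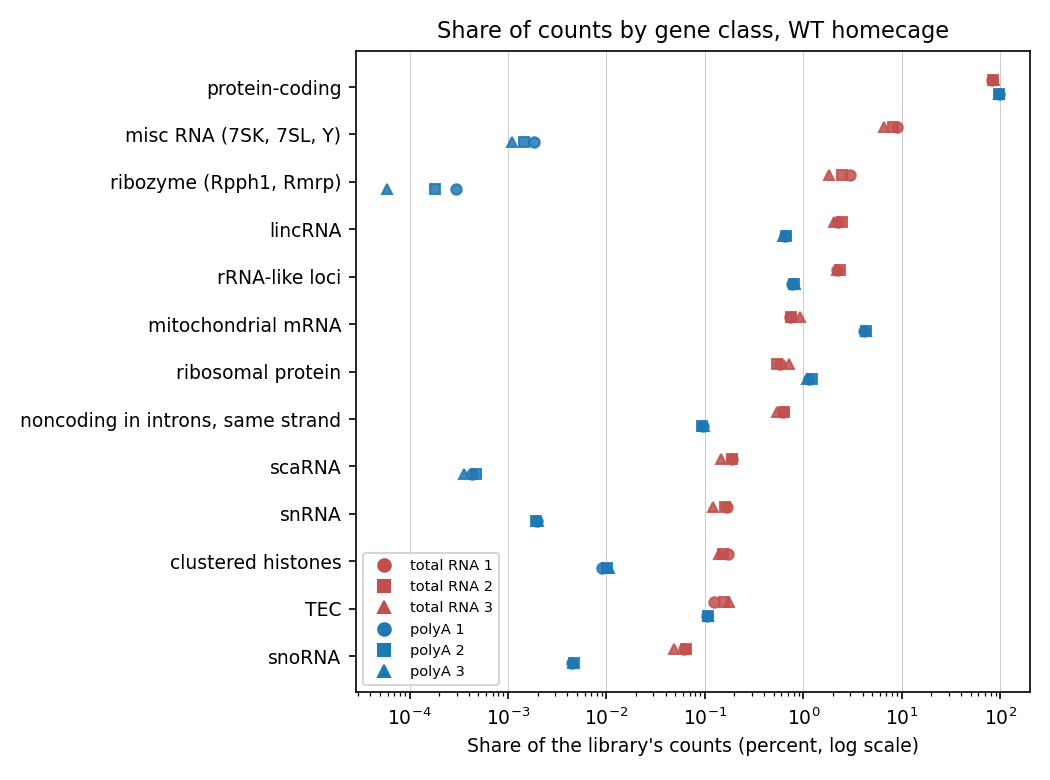
Each point is the share of one library's counts that fell on all annotated members of a gene class, in percent on a log axis, with total RNA in red, polyA in blue and the marker shape giving the replicate. The misc RNA, ribozyme and scaRNA points of total RNA lie orders of magnitude to the right of the polyA points, while mitochondrial and ribosomal protein mRNA lie to the left.

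Short structured RNAs, most of them made by RNA polymerase III or part of RNA-processing enzymes, were far higher in total RNA. All 10 tested members of a list of 11, which also holds the telomerase RNA, were higher, where 37.2% of all genes were. Members with few polyA reads passed the filter on low counts through the total RNA libraries and had to be higher there. The count describes the members that passed and no more. Rn7sk (chr9:78175303-78175633, minus strand), which encodes the 7SK RNA that holds the elongation factor P-TEFb inactive, had 84309, 75395 and 52706 CPM in total RNA and 8.99, 5.04 and 2.27 CPM in polyA. It was the gene with the highest count in each total RNA library. Rpph1, the RNA subunit of RNase P that trims tRNA precursors, had 37388, 30075 and 19067 CPM against 1.98, 1.14 and 0.387 CPM. The log2 difference was 13.62 ± 0.60 (SE) for Rn7sk and 14.45 ± 0.57 for Rpph1, with edgeR adjusted p-values of 3.84e-07 and 1.71e-07. In both genes the groups lay far apart, and the lowest level of each group was that of replicate 3.

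Rn7s1, a gene of the 7SL RNA of the signal recognition particle, had 5620, 5083 and 3289 CPM in total RNA and 1 read in all polyA libraries. The ratio of its levels was 499766, with a 95% counting interval of 89698 to 19739700. Gm24447, a misc_RNA gene on chromosome 15, had 6473, 6249 and 4638 CPM in total RNA and no read in any polyA library, so its level was at least 210501-fold higher, taking 3 counts over the polyA group as the smallest detectable amount. The 7SL family has many near-identical copies in the genome, among which reads can be split, so values of single copies are uncertain. Lower down, Rmrp, the RNA of RNase MRP, averaged 42.0 ± 13.2 CPM (SD, n = 3) against 0.327 ± 0.261 CPM, and Terc, the template RNA of telomerase, 5.46 ± 1.43 against 0.0775 ± 0.0534 CPM. The smallest difference of the list was that of the Y RNA gene Rny1, 0.483 ± 0.145 against 0.0372 ± 0.0486 CPM, with a log2 difference of 3.33 ± 0.64 (edgeR adjusted p = 0.00117).

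Guide RNAs and spliceosomal RNAs were counted far more in total RNA. The 51 annotated scaRNAs, which direct modification of spliceosomal RNA in Cajal bodies, took 0.174% ± 0.0249 of total RNA counts and 0.000420% ± 5.88e-05 of polyA counts. In the same direction, the 1383 snRNA genes took 0.15% ± 0.0248 against 0.00198% ± 4.51e-05, and the 1507 snoRNA genes 0.0577% ± 0.00854 against 0.00457% ± 8.56e-05. Scarna2 had 705.2, 678.3 and 469.8 CPM in total RNA and 0.184, 0.116 and 0.0553 CPM in polyA (log2 difference 12.16 ± 0.30, edgeR adjusted p = 3.46e-08). Snord17, a box C/D snoRNA gene on chromosome 2, had 222.4, 257.2 and 146.0 CPM against 0.207, 0.194 and 0 CPM. The snoRNA genes did not move as a block, since 57 of the 97 tested were higher and 13 lower in total RNA, beside 37.2% and 31.7% of all genes. Those with few polyA reads passed the filter on low counts through the total RNA libraries and had to be higher there. Snord91a, in an intron of a host on chromosome 11, was lower, at 1.10 against 4.30 CPM (log2 difference -1.95). Most snoRNAs lie in introns or exons of host genes, and counts at those loci can come from host transcripts.

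The long host transcripts of snoRNAs showed no such separation. Of 14 tested snoRNA host genes 3 were higher and 6 lower in total RNA, beside 37.2% and 31.7% of all genes, with a median log2 difference of -0.07. Gas5, the host with the highest level, averaged 54.7 ± 5.75 CPM in total RNA and 87.2 ± 3.92 CPM in polyA (log2 difference -0.67 ± 0.10). After adjustment for GC content Gas5 was at -0.08 and did not pass. The extremes were Snhg9 at 2.12 ± 0.53 and Snhg6 at -1.23 ± 0.15.

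Clustered histone genes, the replication-dependent histone genes named Hist1 to Hist4, were counted far more in total RNA. Their 65 annotated members took 0.173%, 0.154% and 0.139% of total RNA counts and 0.00910%, 0.0101% and 0.0106% of polyA counts, 15.7 times as much on average. Of the 52 members that passed the filter on low counts, 49 were higher and 2 lower in total RNA, beside 37.2% and 31.7% of all genes. In the polyA libraries 5 of them had no read and 15 had 1 to 3 reads in all, and of the other 32, 25 were at least 10-fold higher in total RNA. The median log2 difference was 7.0, or 6.78 with the genes without a polyA read set to their bound. The other 13 members did not pass the filter. Genes with so few polyA reads passed through the total RNA libraries and had to be higher there, so the counts and medians describe the genes that passed and no more.

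The stem-loop is shown here because it is the known end of these mRNAs, and genes both higher and lower in total RNA hold a match. It was searched in the longest protein-coding transcript of each gene (GENCODE M21, GRCm38) on the sense strand as the stem arm GGNNCT, the loop TTTN and the stem arm AGNNCC without a gap, a stem of 6 base pairs around a loop of 4 bases. The loop is in capitals and the sequences read 5′ to 3′.
Hist1h4d, chr13:23581950-23581965, plus strand: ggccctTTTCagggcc
Hist1h3e, chr13:23561903-23561918, minus strand: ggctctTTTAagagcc
Hist2h4, chr3:96262939-96262954, minus strand: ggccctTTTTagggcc
Hist1h1c, chr13:23739512-23739527, plus strand: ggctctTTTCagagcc
Hist3h2a, chr11:58955172-58955187, plus strand: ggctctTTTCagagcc
The motif was present in 41 of 65 clustered histone genes and in 35 of the 52 tested, and in 28 of 21728 other protein-coding genes (0.129%). In 13 of the tested genes the annotated transcript is short. Of these, Hist1h4b, Hist1h4f, Hist1h4m and Hist1h4n held a match near the transcript's end. In the others the search could not reach a 3′ end beyond the annotation.

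Hist1h4d, a histone H4 gene, had 374.1, 323.5 and 208.2 CPM in total RNA and 0.115, 0.116 and 0.111 CPM in polyA. The log2 difference was 11.32 ± 0.34 (edgeR adjusted p = 5.43e-08), the highest of the members with more than 3 polyA reads. Hist1h4h, another H4 gene, had 331.4, 273.5 and 189.1 CPM against 0.761, 0.465 and 0.719 CPM, a log2 difference of 8.72 ± 0.29. In both genes the polyA libraries stayed under 1 CPM, and the lowest total RNA library was replicate 3. Histone genes of one type are close in sequence: 45 of the 52 transcripts shared at least one stretch of 100 bases with another clustered histone transcript, and 16 shared 50% or more of theirs, so that values of single genes are uncertain. Hist1h4d and Hist2h2be shared none.

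A few clustered histone genes were well represented in polyA RNA. Hist1h1c, a linker histone H1 gene, had 70.0, 73.0 and 98.1 CPM in total RNA and 13.7, 17.6 and 12.9 CPM in polyA (log2 difference 2.44 ± 0.16). Hist1h2be had 18.6 ± 3.23 against 4.49 ± 0.993 CPM, and Hist3h2ba 30.8 ± 1.68 against 11.7 ± 0.744 CPM, with log2 differences of 2.09 ± 0.18 and 1.38 ± 0.10. Hist1h2bc was 1.44-fold higher, with 28.4, 28.4 and 37.9 CPM against 20.3, 21.7 and 24.2 CPM (edgeR adjusted p = 0.00607), and did not pass under scaling by total count alone (log2 difference 0.08). Hist2h3c2 missed the threshold at a log2 difference of 0.72 ± 0.30 (edgeR adjusted p = 0.054), and was at -0.05 after adjustment for GC content.

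The 2 genes that were lower in total RNA encode an H2A and an H2B. Hist2h2be had 5.69, 5.68 and 6.47 CPM in total RNA and 9.27, 9.67 and 11.5 CPM in polyA (log2 difference -0.76 ± 0.14, edgeR adjusted p = 0.00106). Hist3h2a had 7.92, 9.0 and 10.1 CPM against 12, 13.3 and 15.7 CPM (log2 difference -0.59 ± 0.15, edgeR adjusted p = 0.00514). After adjustment for GC content both differences shrank to -0.30, and the edgeR adjusted p rose to 0.054. The annotated Hist3h2a transcript runs 1643 bases past its stem-loop match, and those of Hist1h1c and Hist1h2be run 840 and 1861 bases past theirs. These 3 transcripts and those of Hist3h2ba and Hist2h2be hold AATAAA or ATTAAA, the polyadenylation signals, in their last 50 bases, as did 14 of the 52 tested and 69.1% of other protein-coding genes. The median log2 difference was 5.26 for those 14 and 7.33 for the other 38. The signal alone did not sort the genes, since Hist1h4h holds it too and Hist1h2bc does not. Among genes without the signal the median was 7.39 with a stem-loop match and 7.22 without one. Several of the latter have short annotated transcripts that may end before a stem-loop, such as Hist1h4k (312 bases) and Hist1h2ak (393 bases). The comparison therefore cannot say whether the match sorts the genes.

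**Figure D2:**
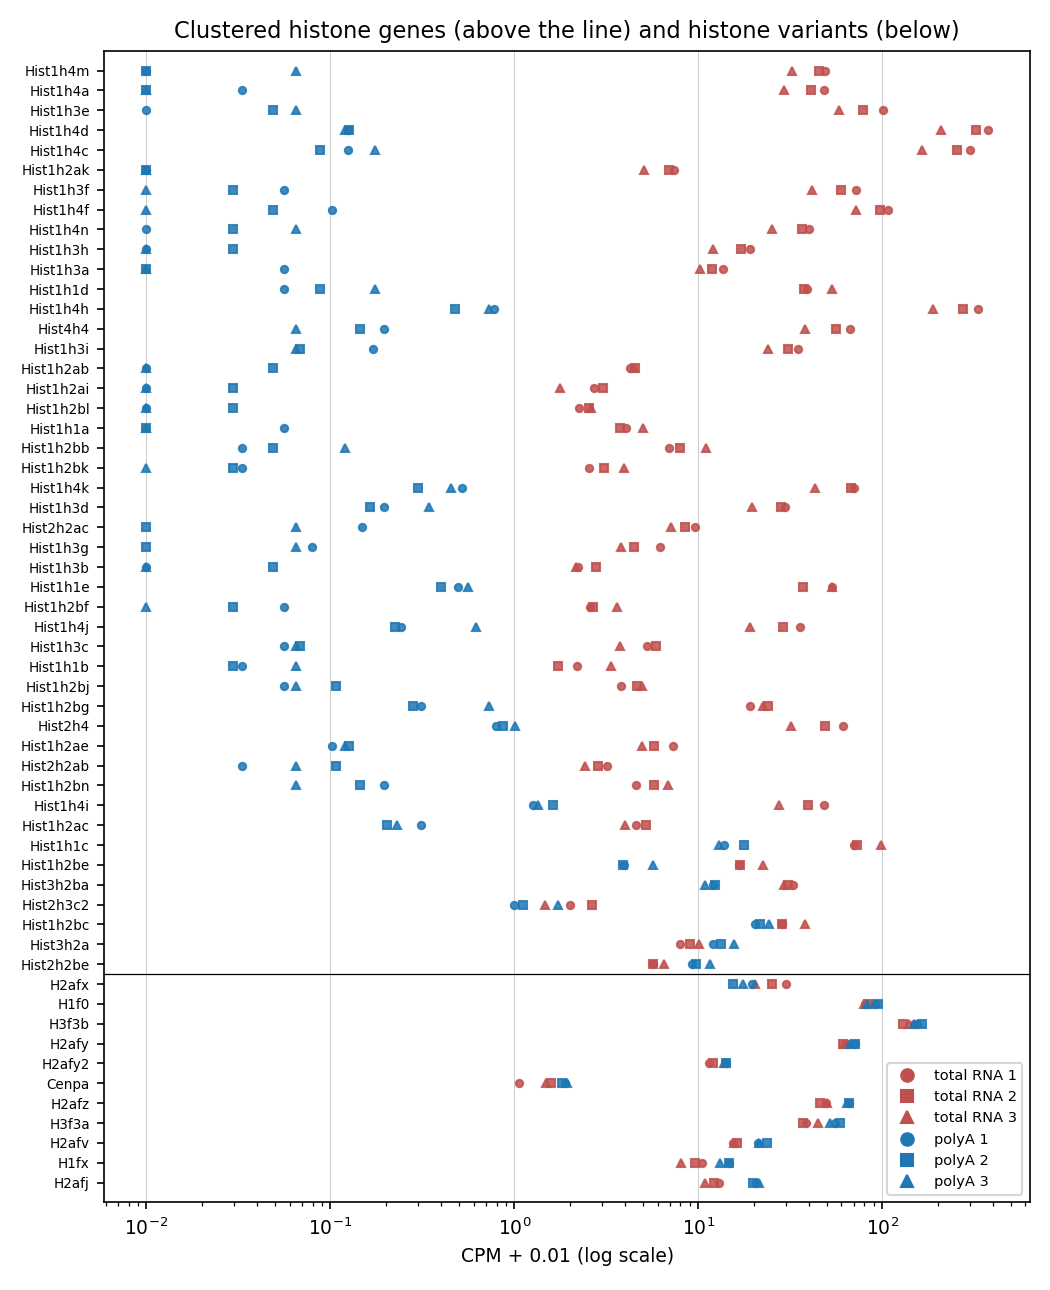
Each row is a histone gene with a mean of at least 1 CPM over the 6 libraries, ordered by log2 difference, and each point 1 library (CPM + 0.01, log axis). Above the line are the 46 clustered genes, whose total RNA points lie to the right except in the lowest rows, and below it the 11 histone variants, whose colours lie together.

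Histone variants outside the clusters are made throughout the cell cycle, mostly from polyadenylated mRNA, and differed less. Of 11 tested variants 1 was higher and 5 lower in total RNA, beside 37.2% and 31.7% of all genes, with a median log2 difference of -0.44. H3f3a had 40.2 ± 4.17 against 55.6 ± 3.63 CPM, and H3f3b, the other gene of histone H3.3 and the variant with the highest level, 139.7 ± 9.51 against 155.6 ± 7.71 CPM (edgeR adjusted p = 0.162). The lowest was H2afj at -0.78 ± 0.11. H2afx, the one variant that rose (0.52 ± 0.15, edgeR adjusted p = 0.011, but 0.057 and not past the test under scaling by total count alone), was also the only variant with a stem-loop match, and its transcript holds a polyadenylation signal as well. Adjustment for GC content turned H2afx to -0.24, H3f3a to 0.11 and H3f3b to 0.44. Among 9 genes of the machinery that cuts histone mRNA ends, 1 was higher and 6 lower in total RNA, against the same shares of all genes. Slbp, the stem-loop binding protein, averaged 9.32 ± 0.631 against 14.3 ± 0.911 CPM (log2 difference -0.62, and -0.16, not past the test, after adjustment for GC content), and Lsm11, a subunit of the U7 snRNP, was the one that rose, at 75 ± 6.11 against 38.1 ± 2.22 CPM.

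Nuclear long noncoding RNAs did not follow a single direction. Of 17 tested members, 7 were higher and 8 lower in total RNA, beside 37.2% and 31.7% of all genes. Malat1 (chr19:5795690-5802672, minus strand), a nuclear speckle RNA whose 3′ end is cut by RNase P and protected by a triple helix in place of a tail, had 4232, 4259 and 5684 CPM in total RNA and 286.7, 294.7 and 246.2 CPM in polyA (log2 difference 4.10 ± 0.18, edgeR adjusted p = 3.29e-07). Kcnq1ot1, an imprinted antisense RNA of chromosome 7 that stays largely unspliced, had 116.8, 159.6 and 152.6 CPM against 9.45, 8.95 and 10.8 CPM (log2 difference 3.89 ± 0.15). Snhg14, the long transcript of the imprinted Ube3a antisense domain, had 200.7 ± 27.2 against 57.7 ± 2.98 CPM, and Mirg 66.7 ± 6.31 against 24.4 ± 0.694 CPM. Nespas, antisense to the imprinted Gnas locus, had 0.399 ± 0.0551 CPM in total RNA and 1 read in all polyA libraries, a ratio of 45.4 with a 95% counting interval of 7.80 to 1825.

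Other nuclear lncRNAs were higher in polyA. Meg3, an imprinted RNA of chromosome 12 that neurons express strongly, had 210.9, 209.8 and 168.4 CPM in total RNA and 627.7, 590.9 and 522.9 CPM in polyA (log2 difference -1.56 ± 0.13). Neat1, the scaffold of paraspeckles, neighbours Malat1 on chromosome 19 and had 70.4, 64.9 and 70.6 CPM against 155.2, 190.4 and 149.0 CPM (log2 difference -1.26 ± 0.11). Ftx, a noncoding gene of the X-inactivation centre, was at 13.9 ± 2.21 against 58.7 ± 6.11 CPM, and Miat at 330.8 ± 51.3 against 686.4 ± 44.1 CPM. The lowest was Snhg11, which the annotation lists as protein-coding, with 259.6, 289.0 and 258.5 CPM against 2438, 2578 and 2339 CPM (log2 difference -3.19 ± 0.12, edgeR adjusted p = 1.71e-07). In each of these genes the 2 groups did not overlap, as in 73.6% of all genes tested. Neat1 has a short tailed and a long untailed form that share their 5′ part, and counts per gene do not separate them. Among other lncRNAs with at least 10 CPM, Lncpint was higher at 22.6 ± 2.75 against 0.280 ± 0.0496 CPM, and its log2 difference of 6.38 ± 0.19 was among the 5 highest.

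Counts at the rRNA-like loci were a small share in either library type. Counts per gene do not measure all rRNA left in a library. Gm26917, a lincRNA gene on chromosome 17, counted here among the rRNA-like loci, had 19293, 21300 and 11303 CPM in total RNA and 36.3, 27.8 and 14.0 CPM in polyA (log2 difference 9.36 ± 0.47). Of the mitochondrial rRNAs, mt-Rnr2 was higher in total RNA (8079 ± 1900 against 3956 ± 203.0 CPM) and mt-Rnr1 lower (696.2 ± 90.1 against 2404 ± 112.8 CPM), with log2 differences of 1.03 ± 0.18 and -1.79 ± 0.13. The 8 rRNA-like loci together took 2.27% ± 0.102 of total RNA counts and 0.795% ± 0.0292 of polyA counts.

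Noncoding genes annotated inside introns of protein-coding genes were counted mostly in total RNA. The 3826 such genes on the strand of their host took 0.602% ± 0.0533 of total RNA counts and 0.0958% ± 0.00282 of polyA counts, 6.28 times as much. The 2897 on the opposite strand took 0.662% ± 0.146 against 0.0760% ± 0.0167. Noncoding genes apart from any protein-coding gene, 7SK and 7SL RNA among them, took 11.2% ± 1.09 against 1.77% ± 0.0289. Many of the nested genes are of the class TEC, transcripts whose existence is still to be checked experimentally. As a whole the 2954 TEC genes took 0.151% ± 0.0267 against 0.107% ± 0.000700 of counts. Most of the nested share in total RNA therefore lay in other classes. The miRNA genes, nested or not, took 0.620% ± 0.169 against 0.0544% ± 0.0235. Which genes carry the nested shares was not tested. Among tested TEC genes the median log2 difference was 4.61 for those in introns on the host's strand, 4.37 for those on the opposite strand and 0.10 for those apart from protein-coding genes. Most of the nested ones passed the filter through the total RNA libraries, so these medians describe the genes that passed and no more. Reads from an intron of the host and reads from a nested gene on the same strand cannot be told apart in counts per gene.

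The nested genes were then set beside the exons of the same host. In 456 hosts whose same-strand nested genes had at least 100 reads in the 6 libraries and more than 3 in polyA, the summed level of the nested genes had a median log2 difference of 2.72 (quartiles 0.53 and 4.52), and that of the hosts was -0.06. The nested sum lay above the host in 378 of the 456. On the opposite strand the median was 2.00 against 0.07 in the hosts, and the nested sum lay above the host in 204 of 269. The strand setting of the counting is not given, so host intron reads may be counted on the opposite strand too. Most hosts reached 100 nested reads through the total RNA libraries, so these counts and medians describe hosts chosen in part for a high level there. Kcnip4, a potassium channel interacting protein, holds 24 such genes, which together had 44.0, 66.1 and 59.8 CPM in total RNA and 2.31, 2.27 and 1.38 CPM in polyA. The exons of Kcnip4 went the other way, with 26.1, 26.9 and 27.6 CPM against 43.4, 40.8 and 44.8 CPM (log2 difference -0.68 ± 0.09). In Cntnap2, a neurexin family member with very long introns, 24 nested genes had 18.4, 27.9 and 23.6 CPM against 0.645, 0.678 and 0.387 CPM. The Cntnap2 exons had 102.1, 102.5 and 100.01 CPM against 96.8, 95.8 and 95.5 CPM and did not pass the test (log2 difference 0.08 ± 0.08, edgeR adjusted p = 0.386), while scaling by total count alone gave -0.38 and adjustment for GC content 0.55. Dlg2, which encodes the synaptic scaffold PSD-93, was the weakest of the 3, with nested genes at 27.0 ± 6.05 against 5.28 ± 1.05 CPM and exons at a log2 difference of -0.57 ± 0.11, or -0.11, not past the test, after adjustment for GC content. In all 3 genes the nested level did not overlap between the types, as was so for 73.6% of all genes tested.

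**Figure D3:**
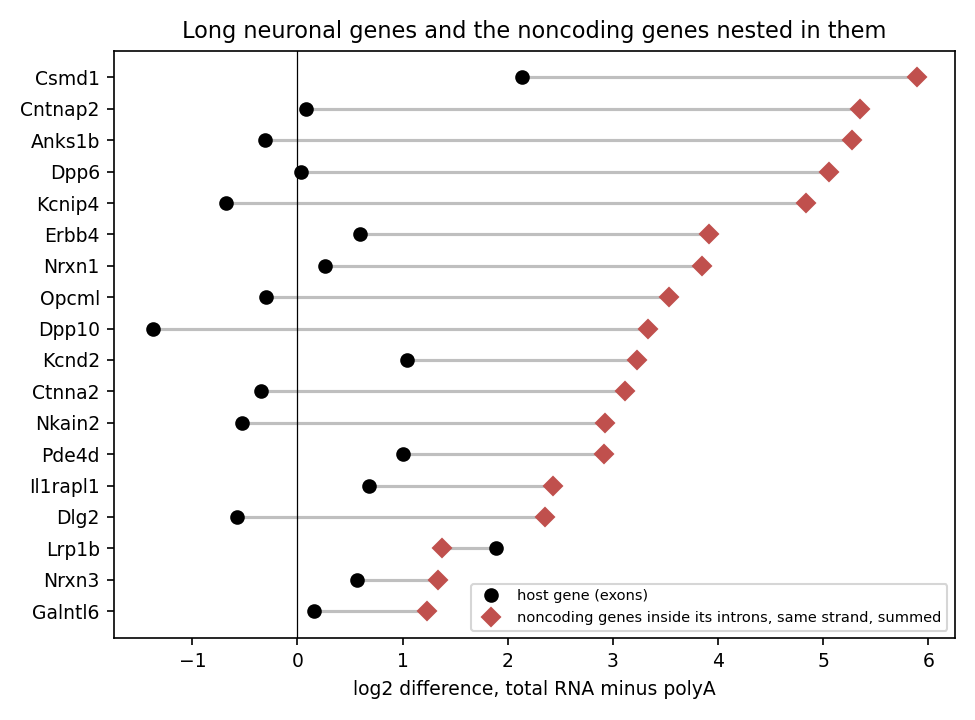
Shown are 18 long neuronal genes whose same-strand nested genes had at least 100 reads in all and more than 3 in polyA. The black point is the log2 difference (total RNA minus polyA) of the host's exons. The red diamond is that of the noncoding genes nested in its introns on the same strand. In 17 of the 18, chosen in part for nested reads in total RNA, the nested genes lie to the right of the host, with a median of 3.28 against 0.12, and Lrp1b is the exception. Of the hosts left out for fewer than 100 reads, Fgf14 and Grm7 had nested genes below the host. Asic2, Macrod2, Pcdh15 and Rbfox1, left out likewise, had them above.

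Long neuronal genes themselves, counted over their exons, were shifted less. Of the 46 listed, all tested, 21 were higher and 9 lower in total RNA, beside 37.2% and 31.7% of all genes, and the median log2 difference was 0.20, or -0.25 under scaling by total count alone. The highest was Nkain3, a sodium pump interacting protein, with 22.9, 17.7 and 20.5 CPM in total RNA and 1.68, 1.71 and 1.93 CPM in polyA (log2 difference 3.54 ± 0.15, edgeR adjusted p = 3.52e-07). Csmd1, a large complement control membrane protein, had 219.1, 273.1 and 243.3 CPM against 59.2, 51.1 and 57.2 CPM (log2 difference 2.14 ± 0.11). Lrp1b, a lipoprotein receptor relative, was at 118.8 ± 21.2 against 32.1 ± 1.97 CPM. At the other end Dpp10, a potassium channel subunit, had 22.9, 14.6 and 27.8 CPM against 58.2, 57.1 and 55.1 CPM (log2 difference -1.38 ± 0.19), and Macrod2 was at -1.04 ± 0.09.

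Across all 15322 tested protein-coding genes, GC content ordered the differences and intron length did so weakly. From the decile of genes with the lowest GC content to that with the highest, the median log2 difference went from -0.72 to 0.80, rising at each step. In the lowest decile 124 genes were higher and 1029 lower in total RNA, and in the highest 1009 were higher and 116 lower. By intron length the median was 0.17 in the shortest decile, fell to -0.27 in the middle of the range and came back to 0.18 in the longest, where 646 genes were higher and 406 lower (-0.27 for the longest decile under scaling by total count alone). Genes with long introns have lower GC content, 47.3% in the longest decile against 54.0% in the shortest. Within each quintile of GC content the longest-intron decile lay above the other genes, by medians of -0.31 against -0.74 in the lowest quintile and 0.88 against 0.68 in the highest. Adjustment for GC content moved the median of the longest decile to 0.32. The libraries differed in kit, core and read length at once, and which of these moves with GC content was not tested.

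**Figure D4:**
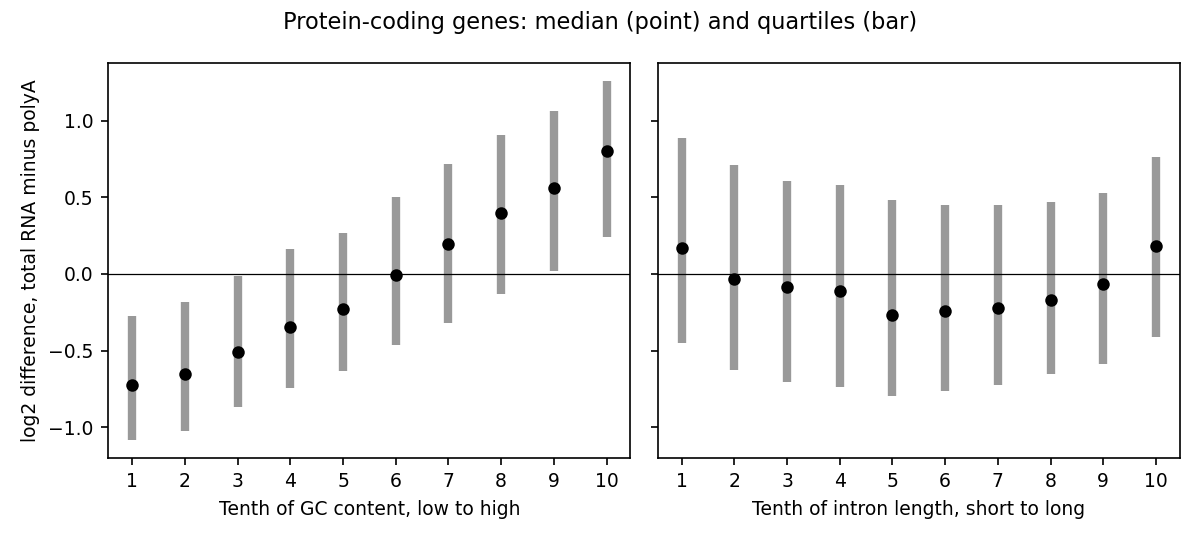
Median (point) and quartiles (bar) of the log2 difference, total RNA minus polyA, for protein-coding genes in deciles of GC content (left) and of intron length (right). The medians climb from -0.72 to 0.80 over GC content and form a shallow V over intron length.

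Outside the histones, differences of single protein-coding genes reached housekeeping genes. Actb, cytoplasmic actin, had 3840, 3650 and 3019 CPM in total RNA and 885.3, 852.9 and 818.1 CPM in polyA, 4.11-fold higher (log2 difference 2.04 ± 0.14, edgeR adjusted p = 3.66e-06). Gapdh, a glycolytic enzyme often used beside it as a reference, had 1140, 1213 and 996.0 CPM against 1281, 1264 and 1141 CPM and did not pass the test (log2 difference -0.14, edgeR adjusted p = 0.338). Gapdh did pass under scaling by total count alone (-0.60) and after adjustment for GC content (-0.31). Crebbp, which encodes CBP, had 194.5, 237.3 and 165.1 CPM against 66.5, 58.4 and 64.6 CPM (log2 difference 1.66 ± 0.14, edgeR adjusted p = 9.48e-06). In Actb and Crebbp every total RNA library lay above every polyA library, as in 38.5% of all genes tested.

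Among protein-coding genes of at least 10 CPM, those lowest in total RNA included mitochondrial genes, Snhg11 and several genes of other kinds. Mbd6, a methyl-CpG-binding domain protein, had 10.2, 10.5 and 7.15 CPM in total RNA and 73.1, 66.7 and 66.2 CPM in polyA (log2 difference -2.90 ± 0.15), and Muc3a, a mucin gene, 1.23 ± 0.358 against 18.9 ± 1.94 CPM (-3.97 ± 0.21). Coro6, a coronin, was at -2.62 ± 0.16. Dcn, the matrix proteoglycan decorin, was at -2.81 ± 0.37, with polyA replicate 2 at 90.3 CPM and the other polyA libraries at 46.7 and 44.5 CPM.

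Ribosomal protein mRNAs, short and abundant, were lower as a group. Of 82 tested genes 65 were lower and 7 higher in total RNA, beside 31.7% and 37.2% of all genes, and the median log2 difference was -0.69. All 84 together took 0.578%, 0.545% and 0.713% of total RNA counts and 1.14%, 1.22% and 1.09% of polyA counts. Rpl35 was the lowest, with 17.3, 13.1 and 17.3 CPM against 56.0, 60.9 and 49.0 CPM, and Rps28 the highest, with 80.1 ± 6.58 against 45.1 ± 3.91 CPM. Ribosomal protein genes have many processed pseudogenes that share reads with them. Processed pseudogenes were higher in total RNA, at 0.173% ± 0.0198 against 0.0694% ± 0.0250 of counts, and among polyA libraries replicate 3 stood out with 0.0983% against 0.0549% and 0.0550%.

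Most mitochondrial mRNAs carry short tails added by a polymerase of their own. Of the 13 genes 7 were lower and 4 higher in total RNA, beside 31.7% and 37.2% of all genes. mt-Co1, subunit I of cytochrome c oxidase, had 5375, 5275 and 6615 CPM in total RNA and 14026, 14519 and 14689 CPM in polyA (log2 difference -1.32 ± 0.15) and was the gene with the highest count in each polyA library. mt-Nd6, the only mRNA gene on the other strand, showed the lowest log2 difference of the genes of at least 10 CPM, with 32.7, 37.3 and 29.3 CPM against 1286, 1262 and 1311 CPM (-5.28 ± 0.14, edgeR adjusted p = 4.82e-08). The strand setting of the counting is not given, so reads from the opposite strand may be counted at mt-Nd6, and its value is uncertain. Lower levels were also measured for mt-Nd5 (-3.77), mt-Nd2 (-3.58), mt-Nd4 (-3.0) and mt-Cytb (-2.61). The 22 mitochondrial tRNA genes are shorter than the reads, and 16 of the 18 tested were lower in total RNA, beside 31.7% of all genes. Those with few total RNA reads, such as mt-Tt (0.0112 against 1.04 CPM), passed the filter on low counts through the polyA libraries. They had to be lower in total RNA, so the count describes the genes that passed and no more.

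The 4 mitochondrial mRNA genes that were higher in total RNA are neighbours, mt-Co2, mt-Atp8, mt-Atp6 and mt-Co3, at chrM:7013-9390. mt-Co2 had 149.7, 158.2 and 121.4 CPM in total RNA and 2.61, 2.75 and 7.96 CPM in polyA (log2 difference 5.16 ± 0.37), and mt-Co3 had 89.5 ± 14.6 against 4.82 ± 2.76 CPM. Per length, mt-Co2 was at 209.2 RPKM in total RNA and 6.49 RPKM in polyA, while mt-Co1 just upstream was at 3725 and 9328 RPKM. This stretch has a nuclear copy on chromosome 1, where 7 unprocessed pseudogenes lie at chr1:24611535-24616197. They match mt-Nd4, mt-Nd4l, mt-Nd3, mt-Co3, mt-Atp6, mt-Co2 and mt-Co1. Their transcripts were 99.7% to 100% identical to the matching mitochondrial genes, and Gm28661 was identical to mt-Co2 over 681 of 681 aligned bases. All 7 pseudogenes were higher in total RNA as well, beside 37.2% of all genes, with log2 differences of 1.71 to 5.46. Gm28661 had 105.6 ± 16.9 CPM in total RNA and 2.75 ± 1.98 CPM in polyA. Reads from the gene and its copy cannot be separated where they are identical, so the values of these mitochondrial genes are uncertain in both library types.

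**Figure D5:**
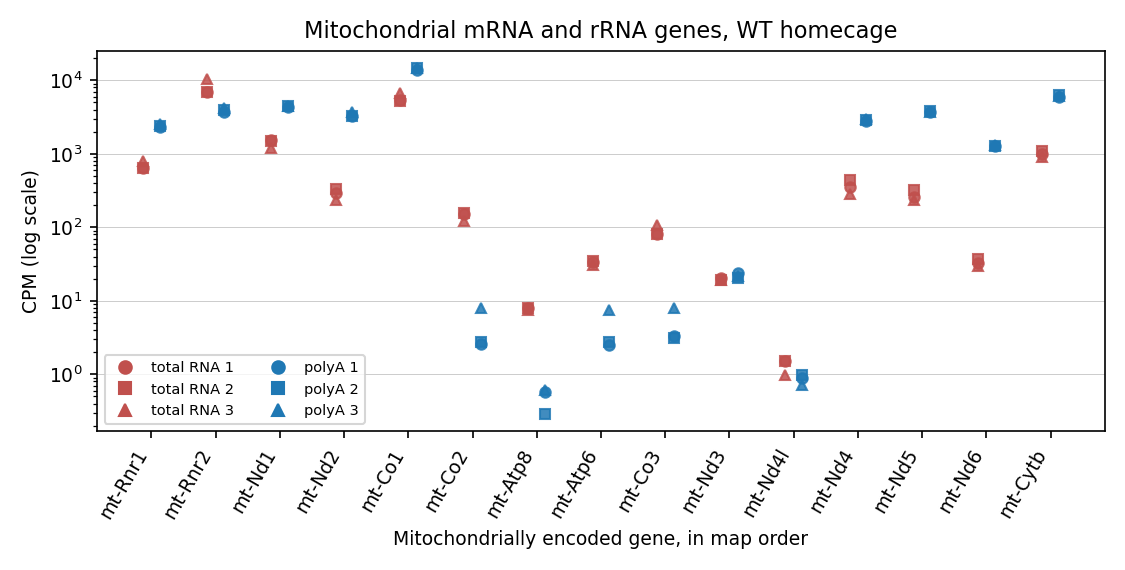
Level of each mitochondrially encoded mRNA and rRNA gene in each library (CPM, log axis), in map order, with total RNA in red and polyA in blue. Blue lies above red for most genes, while mt-Co2, mt-Atp8, mt-Atp6 and mt-Co3 form a trough in which polyA falls below 10 CPM and red lies above blue.

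Thinned to the smallest total of 15385836 counts, the total RNA libraries held 21268, 21616 and 22297 genes with at least 3 counts and the polyA libraries 19499, 19776 and 19734. The groups did not overlap, and the exact two-sided permutation test gave its smallest possible p of 0.10. Without thinning the means were 26019 and 21582. The gain lay in noncoding genes. lncRNA genes numbered 3821 to 4185 against 2919 to 3010, pseudogenes 1749 to 2031 against 821 to 1136, and small RNA genes 391 to 462 against 192 to 215. Protein-coding genes did not gain, with 15223, 15265 and 15528 in total RNA and 15407, 15644 and 15398 in polyA (p = 0.30, exact permutation test).

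Hippocampal cell type markers were split within several cell types and moved one way in others. Of 54 tested markers of 11 cell types and regions other than blood, 18 were higher and 13 lower in total RNA, beside 37.2% and 31.7% of all genes, and the median GC content was 57.7% for the former and 42.2% for the latter. All 4 markers of dentate granule cells were higher, with sums of 474.8 to 517.2 CPM in total RNA and 200.8 to 251.7 CPM in polyA, though Prox1 turned to -0.11 under scaling by total count alone and did not pass without total RNA replicate 2 (0.33), polyA replicate 1 (0.33) or polyA replicate 2 (0.26). Of 7 interneuron markers 3 were lower, Gad2, Pvalb and Vip, and the other 4 did not pass the test. Of 6 oligodendrocyte markers 2 were higher and 3 lower. Mag had 389.1 ± 52.0 against 146.7 ± 20.7 CPM and Mobp 385.9 ± 87.8 against 613.3 ± 101.6 CPM. Of 6 microglia markers 4 were higher and 1 lower. Tmem119 was higher (48.9 ± 9.35 against 16.1 ± 0.725 CPM) and P2ry12 lower (12.1 ± 2.78 against 29.6 ± 1.46 CPM). Among 6 astrocyte markers 1 was higher and 3 lower, with Aldh1l1 higher by 1.69 ± 0.11 on the log2 scale and Gja1 at -1.15 ± 0.10. Among 6 pyramidal neuron markers 3 were higher and 1 lower, with Fibcd1 at 1.95 ± 0.24 and Neurod6 at -1.21 ± 0.10. In bulk tissue fewer cells of a type and less RNA per cell cannot be told apart, and here neither can be told apart from the library type.

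Blood markers moved together, with all 5 higher in total RNA, beside 37.2% of all genes. Their sum was 259.9, 427.1 and 204.2 CPM in total RNA and 24.7, 34.7 and 25.3 CPM in polyA. Hba-a1, an alpha-globin gene, had 116.8, 198.9 and 91.1 CPM against 7.31, 9.57 and 7.19 CPM (log2 difference 4.06 ± 0.29), and Alas2, the erythroid enzyme of heme synthesis, 8.17, 16 and 9.91 CPM against 1.04, 1.10 and 0.884 CPM (3.46 ± 0.28). The amount of blood in the tissue and the library type cannot be told apart here.

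Immediate early genes, whose levels follow recent neuronal activity, were in part higher in total RNA. Of 16 tested genes 8 were higher, beside 37.2% of all genes, and the other 8 did not pass the edgeR test, Jun at -0.19 the lowest of them. Btg2, among those higher, did not pass under scaling by total count alone (log2 difference 0.20). Arc, a synaptic regulator with the highest level of the list, averaged 265.9 ± 61.3 CPM in total RNA and 63.5 ± 2.48 CPM in polyA (log2 difference 2.06 ± 0.15), and Junb was at 1.62 ± 0.13. Fos had 7.80, 9.96 and 8.77 CPM against 2.95, 4.26 and 4.42 CPM (1.20 ± 0.19). The part of handling in these values was not tested.

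The comparison was repeated between libraries that the homecage groups do not share. In trained WT mice (3 total RNA libraries after the Morris water maze against 4 polyA libraries after contextual fear conditioning) 76.2% of 20726 genes differed, and in trained CBP KIX/KIX mice (3 against 4) 72% of 20199. Of the 7222 genes that differed by at least 2-fold in homecage mice, 6861 were tested in trained WT mice, and 99.6% had the same sign. In trained CBP KIX/KIX mice 6610 were tested, with 99.6% of the same sign. Of the 49 histone genes that were higher, the 47 tested in trained WT mice and the 46 tested in trained CBP KIX/KIX mice were all higher and past the threshold. Here too, histone genes with few polyA reads passed the filter on low counts through the total RNA libraries and had to be higher there. Among single genes, Rn7sk was at 12.12 and 11.82, Malat1 at 3.68 and 3.75, Actb at 1.95 and 1.92, Meg3 at -1.88 and -2.07, and mt-Nd6 at -5.59 and -5.38 on the log2 scale in trained WT and trained CBP KIX/KIX mice. In these groups the task differs along with the library type, and kit, core, sequencer model and read length differ as in the homecage groups.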

How the data were processed

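Dorsal hippocampus RNA was sequenced by the authors as ribosome-depleted total RNA or polyA RNA, aligned with STAR and counted per gene with featureCounts 1.4.4 (GRCm38, mm10), per the submitters' processing notes. The deposited values are raw counts. The strand setting of the counting is not given in the sources used here, so overlapping and antisense genes may share reads.

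The 3 total RNA and 3 polyA libraries of WT homecage mice were grouped from the labels and compared with edgeR 4.0.16 in R 4.3.3 (upper-quartile normalization, filterByExpr, quasi-likelihood test, two-sided, Benjamini-Hochberg over all 20602 genes). CPM are upper-quartile scaled. Shares are percents of raw counts over all members of a class, compared by exact permutation. Of 51826 gene identifiers 51633 matched GENCODE M21, which gave biotypes, lengths and introns, and those unmatched took at most 0.0307% of a library's counts. Library totals ran from 15385836 to 62431769, which sets the floor for undetected genes (3 counts over the polyA group), and intervals cover counting error only. Same-numbered libraries of the 2 experiments had deviations correlated at 0.13, -0.04 and -0.0012, so the numbers were not taken as pairs. Genes named are the 10 highest and lowest with at least 10 CPM, the same within protein-coding and lncRNA genes, and members of listed classes. Others, such as Sik1, were chosen after their values were seen. One gene that this rule names is not reported here. The alternatives were other scalings, filters, a GC adjustment, the replicate block, DESeq2 1.42.0 and leaving out each library. The members and lists were chosen with earlier results of these data known. Scripts were tested on simulated data.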

Additional observations from a re-analysis of the deposited data

Results flagged for a closer look

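The difference between total RNA and polyA was compared between trained and homecage WT mice with an interaction term (edgeR, 22038 genes tested), and 3 genes passed an adjusted p under 0.05, beside 1645 at an unadjusted p under 0.05. For Fos the log2 difference was 1.20 in homecage mice and -0.43 in trained mice, an interaction of -1.66 ± 0.22 (edgeR adjusted p = 0.0318). Btg2 went from 0.66 to -0.42, an interaction of -1.09 ± 0.15, and Sik1 from 1.41 to 0.47, an interaction of -0.95 ± 0.14, with the same edgeR adjusted p of 0.0318 for both. Under scaling by total count alone the homecage difference of Btg2 was 0.20 and did not pass. All 3 are activity-regulated genes. The training task also differed between the library types in the trained mice, so task and library type cannot be told apart.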

How the results depend on the processing

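Counts of genes past the threshold in either direction stayed within 1.5 times the 14209 reported under every alternative run. Of 1601 values of 107 named genes under the alternatives, 1570 kept direction and side of the threshold, 8 reversed, 11 lost and 12 gained significance. Scaling by total count alone reversed the medians of antisense genes (-0.12), long neuronal genes (-0.25) and the longest-intron decile (-0.27), and Peg13 (-0.0087), Cntnap2 (-0.38), Adgrb3 (-0.018) and Prox1 (-0.11). It moved the medians of protein-coding genes to -0.54, lincRNA -0.76, TEC 2.73, clustered histones 6.59, same-strand intronic genes 3.69, opposite-strand 2.58, nuclear lncRNAs -1.03, ribosomal protein genes -1.14, mitochondrial mRNA -1.77, and the lowest and highest GC deciles -1.16 and 0.34, and gave 5610 genes at least 2-fold lower. Adjustment for GC content reversed Hist2h3c2 (-0.046), H2afx (-0.24), H3f3a (0.11) and H3f3b (0.44), and moved the medians of lincRNA to -0.17, antisense 0.23, TEC 3.46, clustered histones 6.58, same-strand intronic genes 4.31, long neuronal genes 0.56, nuclear lncRNAs -0.32, mitochondrial mRNA -1.07, the longest-intron decile 0.32 and the GC deciles -0.41 and 0.045. Without a filter the protein-coding median reversed to 0.0059, and lincRNA was at -0.089, antisense 0.82, TEC 2.74, same-strand intronic genes 3.22, nuclear lncRNAs -0.16 and the longest-intron decile 0.28, with 8110 genes at least 2-fold higher. With at least 1 CPM in 3 libraries the antisense median reversed to -0.16, and protein-coding was at -0.13, lincRNA -0.43, TEC 0.97, polymerase III RNAs 11.71, opposite-strand intronic genes 2.29 and nuclear lncRNAs -0.72, with 2481 genes at least 2-fold higher. These 2 alternatives change which genes are tested, and the cause of the other shifts was not tested. The protein-coding median was -0.047 with median-of-ratios scaling, -0.042 with TMM on protein-coding genes and -0.046 with DESeq2. With the replicate block 14197 genes passed and the histone median was 7.07, and the block ended no call described in the report. Without mitochondrial and rRNA-like loci the polyA shares were 98.3% for protein-coding, 0.101% for same-strand intronic and 0.112% for TEC genes. Without Gm26917 and Malat1, an alternative chosen after seeing the data, the lincRNA share was 0.389% in total RNA and 0.610% in polyA. At 10 counts or more the difference in genes detected was 457 for all genes and -355 for protein-coding genes. Leaving out 1 library gave medians of 3.03 to 3.58 for TEC, 6.87 to 7.12 for histones, 3.95 to 4.29 for same-strand and 2.82 to 3.63 for opposite-strand intronic genes, -0.63 to -0.48 for nuclear lncRNAs, 0.24 to 0.56 for antisense, -0.10 to -0.036 for protein-coding, -0.37 to -0.24 for lincRNA and 2.64 to 3.26 for processed pseudogenes. With 3 libraries a group, small differences and single low genes are beyond the reach of these data.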
